A study of Mus musculus with 3 samples.

Results

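Interleukin 1 (IL-1) signals in inflammation are set by a small group of genes. In this group are 3 ligand genes (Il1a, Il1b and Il18), a receptor antagonist (Il1rn), a decoy receptor (Il1r2), the shared receptor chain (Il1rap) and a soluble protein that binds IL-18 (Il18bp). These 7 genes, of 53802 in the count tables, were taken by symbol and followed in inflammatory monocytes of the injured mouse liver. They were chosen with results of these libraries known, so the difference between knockout and control libraries is given for them as a description and supports nothing further.

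Male C57BL/6 mice of 8 weeks received 300 mg/kg acetaminophen by intraperitoneal injection after a fast of 12 h, and were fed again 2 h later. Acetaminophen overdose kills hepatocytes and draws Ly6Chi monocytes from the blood into the liver, where these cells were sorted 24 h after the dose. The knockout library (knockout 4) came from LysMDCommd10 mice, in which Commd10 is deleted by a Cre recombinase driven from the lysozyme M locus, active in myeloid cells and so not in monocytes alone. The control libraries (control 1 and control 3) came from Commd10fl/fl mice, whose floxed gene is intact; mice of all libraries received the drug, and no undosed mice were analysed here. Whether 1 mouse or several went into each library is not in the labels, so the spread between libraries may be technical. COMMD10 belongs to a family of proteins with roles in endosomal sorting, and the study asked how its loss changes the monocytes that enter an injured liver.

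Cells were captured in droplets and the 3' ends of their transcripts were counted by unique molecular identifiers (UMIs). After filtering, monocyte-macrophage cells numbered 4436 in knockout 4, and 4087 in control 1 and 7416 in control 3, with medians of 6874, and of 8801 and 8175 UMIs per cell. Levels below are UMI counts per 1000000 (CPM) of these cells' summed counts, after edgeR's TMM scaling of each library's total. The libraries shared between 8 and 26 cell barcodes pairwise. Commd10 itself stood at 8.62 CPM in knockout 4, against 17.2 CPM in control 1 and 10.3 CPM in control 3; a 3' count can lie outside the deleted part, so this does not check the genotype. Of the monocyte and macrophage markers, Ly6c2 stood at 604.71 CPM in knockout 4, against 473 and 609 CPM in the controls. Ccr2 also lay between the controls. Below both controls in knockout 4 were Csf1r (584, against 639 and 617 CPM) and Adgre1 (102, against 136 and 132 CPM). Lyz2 was below both controls too (6617, against 14988 and 11575 CPM). It is the lysozyme M gene, from whose locus Cre is driven in the knockout mice. Its level therefore cannot be read as a marker of identity here. Cd68 (771, against 751 and 693 CPM) and Fcgr1 (318, against 268 and 257 CPM) lay above both. The summed level of 5 platelet markers was 30.5 CPM in knockout 4, against 3.43 and 3.73 CPM in the controls, almost all of it Ppbp (29.8, against 2.91 and 2.95 CPM); its part in the results below was not tested. The 7 neutrophil markers summed to 121 CPM in knockout 4, against 85.4 and 108 CPM in the controls. Nearly all of that was Mmp8, at 119 CPM in 33.0% of cells in knockout 4, against 83.3 CPM in 36.8% and 107 CPM in 42.4% of control cells. Cxcr2 had 72 UMIs in knockout 4, against 63 and 60 UMIs; Ly6g had 0, against 3 and 3 UMIs, and Camp and Ngp had 0 in each library. Ighm, a gene of B cells named here after its values were seen, stood at 17.9 CPM in knockout 4, against 36.4 and 36.6 CPM in the controls. The part of these markers in the results was not tested.

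IL-1β and IL-1α act through the same receptor, in which IL1RAP is the second chain needed for a signal. IL-1β and IL-18 are made as precursors that caspase-1 cuts within inflammasomes, while IL-1α is active without that step. The antagonist IL-1RA, encoded by Il1rn, occupies the receptor without recruiting IL1RAP, and IL1R2 binds IL-1 without signalling. In acetaminophen injury, dying hepatocytes release molecules that induce IL-1 genes in myeloid cells.

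Il1b and Il1rn lie on chromosome 2, at 129364570-129371139 (minus strand) and 24336853-24351494 (plus strand) on GRCm38, and their balance is the measure most of the results turn on. The 250 bases before their RefSeq starts (GRCm38.p6) are shown because Il1rn has an upstream and a downstream start, whose transcripts share a 3' end and cannot be told apart by 3' counts. Il1rn has 3 RefSeq windows; the one that overlaps the downstream window is not shown.
Il1b, chr2:129371140-129371389, minus: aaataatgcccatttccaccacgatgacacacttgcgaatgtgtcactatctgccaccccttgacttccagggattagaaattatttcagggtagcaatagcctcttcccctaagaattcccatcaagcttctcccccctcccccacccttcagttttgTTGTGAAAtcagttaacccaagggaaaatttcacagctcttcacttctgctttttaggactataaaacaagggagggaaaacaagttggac
Il1rn upstream start, chr2:24336610-24336859, plus: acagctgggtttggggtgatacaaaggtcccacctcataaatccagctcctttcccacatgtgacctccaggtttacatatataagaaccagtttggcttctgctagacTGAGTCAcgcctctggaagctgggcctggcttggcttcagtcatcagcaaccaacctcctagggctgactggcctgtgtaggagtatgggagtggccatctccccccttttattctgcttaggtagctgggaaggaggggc
Il1rn downstream start, chr2:24345041-24345290, plus: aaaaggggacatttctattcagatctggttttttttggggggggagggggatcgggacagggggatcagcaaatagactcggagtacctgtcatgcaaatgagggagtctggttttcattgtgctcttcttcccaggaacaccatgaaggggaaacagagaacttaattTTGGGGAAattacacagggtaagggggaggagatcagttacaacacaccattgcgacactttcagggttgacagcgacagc
Capitals mark matches, on either strand, to TTNNGNAA (C/EBP; Il1b and the downstream Il1rn start) and TGANTCA (AP-1; the upstream Il1rn start). C/EBP letters occurred in 36.8% and AP-1 letters in 6.75% of 32851 RefSeq promoter windows of this length, and the matches do not overlap each other. A further 3 motifs had no match in these 3 windows: ACGTG (hypoxia response, in 16.6% of windows), GAGGAA (ETS, 23.3%) and the NF-kB motif (7.25%). A match describes these letters and is not evidence of binding.

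Il1b was the most abundant member and did not separate the knockout library from the controls. It stood at 597 CPM in knockout 4, against 486 CPM in control 1 and 667 CPM in control 3. The knockout value lay between those of the controls, with a log2 fold change of 0.05 ± 0.21 (SE; 1 knockout and 2 control libraries; edgeR adjusted p = 0.963). Il1b UMIs were found in 50.7% of cells in knockout 4, against 52.8% and 63.2% in the controls. Counts were uneven among cells: the tenth of cells with most Il1b held 60.1% of its UMIs in knockout 4, against 58.0% and 53.1% in the controls, and single cells reached 167, against 120 and 128 UMIs.

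Il1rn, the receptor antagonist, stood above both controls in the knockout library. It stood at 272 CPM in knockout 4, against 81.0 CPM in control 1 and 133 CPM in control 3. The controls themselves differed by 0.71 on the log2 scale. The log2 fold change, 1.34 ± 0.27, missed the threshold in edgeR's quasi-likelihood test over all genes (adjusted p = 0.190) and passed DESeq2's Wald test (adjusted p = 0.000743). With every cell thinned to 3000 UMIs, Il1rn was found in 29.3% of knockout cells, against 14.2% and 18.9% of control cells; unthinned shares were 38.5%, against 27.0% and 32.3%. Thinned cells with Il1rn held a mean of 2.71 Il1rn UMIs in knockout 4, against 1.59 and 2.12 in the controls, so both the share of cells and the count per cell with Il1rn were higher.

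Il1rap, the accessory chain of the IL-1 receptor (chromosome 16, 26581704-26730117, plus strand), also stood above both controls. It was at 23.6 CPM in knockout 4, against 11.3 CPM in control 1 and 11.1 CPM in control 3. The controls were nearly equal, and the log2 fold change was 1.08 ± 0.16 (edgeR adjusted p = 0.0963; DESeq2 adjusted p = 0.0239). Il1rap UMIs occurred in 5.79% of thinned knockout cells, against 3.52% and 2.94% of thinned control cells, nearly always as a single UMI. Il1r1, which encodes the signalling chain that IL1RAP joins, had 9 UMIs in all cells of knockout 4, against 6 and 7 UMIs in the controls. The other receptors that pair with IL1RAP were low too: Il1rl1, the IL-33 receptor, had 1 UMI in each library, and Il1rl2, the IL-36 receptor, stood at 1.28 CPM in knockout 4, against 1.19 and 0.72 CPM in the controls.

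Il1r2, the decoy receptor (chromosome 1, 40074079-40125231, plus strand), differed widely between the controls. It stood at 9.59 CPM in knockout 4, against 2.76 CPM in control 1 and 8.61 CPM in control 3. Control 3 was close to the knockout library and control 1 was lower, and the log2 fold change of 0.73 ± 0.56 did not pass (edgeR adjusted p = 0.746). An unnamed gene model on the same strand, Gm37347, overlaps Il1r2.

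The other ligands were less abundant. They are Il1a (chromosome 2, 129299610-129309972, minus strand) and Il18 (chromosome 9, 50554827-50581840, plus strand). Il1a stood at 3.21 CPM in knockout 4, against 2.14 CPM in control 1 and 1.22 CPM in control 3 (93, against 86 and 88 UMIs in all cells). The knockout value was above both controls, at a log2 fold change of 0.96 ± 0.40 (edgeR adjusted p = 0.596). Il18 stood at 24.6 CPM in knockout 4, against 24.2 CPM in control 1 and 35.4 CPM in control 3. The knockout value was close to that of control 1 (log2 fold change -0.28 ± 0.24, edgeR adjusted p = 0.776). Il18bp, which binds and neutralises IL-18 (chromosome 7, 102014885-102018690, minus strand), stood at 3.14 CPM in knockout 4, against 2.88 and 3.42 CPM in the controls, again between them (-0.01 ± 0.30, edgeR adjusted p = 0.995). Il18 overlaps Bco2 and Tex12, and Il18bp overlaps Numa1, on opposite strands; the sources used here do not give whether the authors' counting used strand, so reads could not be assigned with certainty.

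In all, 7 of 7 members could be tested and 0 passed edgeR's test at an adjusted p under 0.05, where 0.196% of 14820 genes passed; 8.39% of all genes had an unadjusted p under 0.05, among them Il1rn and Il1rap of the members. DESeq2 called 2 members, Il1rn and Il1rap, where it called 0.922% of genes. Without a filter on low counts edgeR called the same 2 members and 1.84% of genes, and without Ace, Spn and Treml4 positive cells, left out after the values were seen, it called Il1rap (adjusted p = 0.0411) and 0.582% of genes. Il1a, Il1rn, Il1r2 and Il1rap were the 4 members above both controls, an order that 36.1% of all genes showed. The members' median log2 fold change was 0.73, against -0.01 over all genes. A permutation of 1 library against 2 cannot give a p below 0.333, and the edgeR fit, with 1 residual degree of freedom, takes the spread of the single knockout library to equal that of the controls.

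**Figure D1:**
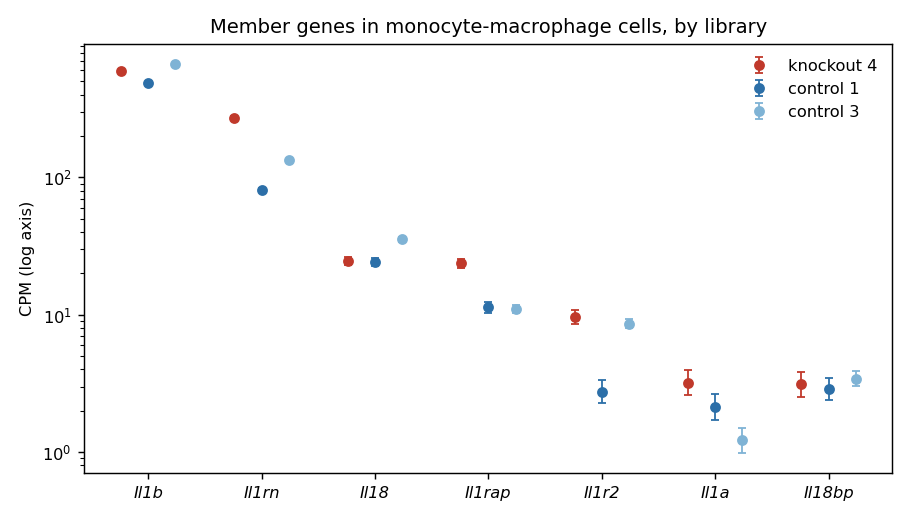
Levels of the 7 members in monocyte-macrophage cells of each library, in CPM on a log axis; bars are exact 95% Poisson intervals of the UMI counts and cover counting error only. Il1rn at 272 CPM and Il1rap at 23.6 CPM in knockout 4 lie above both controls, while Il1b, Il18 and Il18bp lie between the controls.

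Il1rn to Il1b balance was higher in the knockout library. There were 2.20 Il1b UMIs for each Il1rn UMI in knockout 4, against 6.00 in control 1 and 5.03 in control 3. On the log2 scale the ratio of Il1rn to Il1b was -1.14 in knockout 4, against -2.58 and -2.33 in the controls, a difference of 1.32 from their mean, or 2.50-fold. The controls differed from each other by 0.25. As a share of the UMIs of both genes, Il1rn made up 31.2% in knockout 4 (exact Clopper-Pearson 95% interval 30.7 to 31.8%), against 14.3% (13.8 to 14.8%) in control 1 and 16.6% (16.3 to 16.9%) in control 3. The ratio compares UMI counts between libraries and is not a ratio of protein or of transcripts, since genes differ in how well their 3' ends are captured. The Il1rn share was also averaged over the thinned cells that held either gene, so that cells with very high Il1b do not dominate. It was 36.8% over 2178 cells in knockout 4, against 20.7% over 1710 cells in control 1 and 20.7% over 4032 cells in control 3. Without thinning the shares were 38.6% in knockout 4, against 24.3% and 22.8% in the controls.

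Among thinned cells with Il1b, Il1rn was found in 31.0% in knockout 4, against 16.5% in control 1 and 20.1% in control 3. Among cells without Il1b, it was found in 28.0% in knockout 4, against 12.6% and 17.6% in the controls. Il1rn was thus nearly as frequent in cells without Il1b as in cells with it, in each library. The mean Il1rn count of knockout cells was between 0.74 and 0.88 UMIs at every level of Il1b, with 0.74 UMIs in cells without Il1b and 0.80 UMIs in cells with 10 or more. Control means were between 0.21 and 0.27 UMIs in control 1 and between 0.37 and 0.64 UMIs in control 3, where the 294 cells with 10 or more Il1b UMIs had the 0.64. Cells were also classed by Arg1, the arginase of repair-type macrophages, as having 0, 1 to 2, 3 to 9, or 10 or more Arg1 UMIs. In knockout 4 the mean Il1rn count in these classes was 0.55, 0.77, 1.24 and 1.37 UMIs. In control 1 it was 0.20, 0.32, 0.33 and 0.30 UMIs. In control 3 it was 0.39, 0.61, 0.59 and 0.39 UMIs. In each library, the classes with 1 to 2 and with 3 to 9 Arg1 UMIs had more Il1rn than cells without Arg1; the highest class held 548 cells in knockout 4, against 114 and 69 in the controls. Knockout cells without any Arg1 UMI thus held more Il1rn than such cells of either control.

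Cells were divided by marker genes, none of them a member, into 8 groups: cells positive for Ace, Spn and Treml4 (genes of patrolling monocytes), Arg1-high cells, Gpnmb and Lpl positive cells (genes of lipid-handling macrophages), C1q positive cells, S100a8 positive cells (neutrophil-like genes), MHC class II high and C1q low cells, Vcan positive cells (with Chil3 and Ly6c2, genes of inflammatory monocytes), and the remaining cells. Where a group had several markers the cut was on their summed UMIs, so a cell need not hold each of them. Group sizes differed between libraries. Arg1-high cells made up 26.6% of cells in knockout 4, against 8.07% and 2.60% in the controls, and S100a8 positive cells 10.4%, against 5.71% and 2.67%. Gpnmb and Lpl positive cells made up 8.55% in knockout 4, against 25.7% and 12.0%, and Vcan positive cells 32.1%, against 34.7% and 54.7%.

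Il1rn was higher in the knockout library in each of the 8 groups. In Arg1-high cells it stood at 456 CPM in knockout 4, against 116 and 179 CPM in the controls. In Vcan positive cells it stood at 171 CPM in knockout 4, against 44.9 and 96.6 CPM. In MHC class II high, C1q low cells it stood at 314 CPM in knockout 4, against 82.0 and 154 CPM. In that group 5 markers of conventional dendritic cells summed to 2.90 CPM in knockout 4, against 18.2 and 28.9 CPM, with Xcr1, Clec9a and Zbtb46 at 0 in knockout 4. There 3 markers of plasmacytoid dendritic cells had 0 UMIs in knockout 4, against 26.5 CPM in control 1 and 0 UMIs in control 3; the part of both lists in the result was not tested. In Arg1-high cells the 5 platelet markers summed to 81.4 CPM in knockout 4, against 20 and 8.82 CPM in the controls, and their part in the result was not tested. The distance was small in C1q positive cells, with 244 CPM in knockout 4, against 99.2 and 213 CPM, and in Ace, Spn and Treml4 positive cells, with 138 CPM, against 55.1 and 113 CPM; in these 2 groups the counting intervals of knockout 4 and control 3 overlapped. The log2 fold changes within groups were between 0.58 in C1q positive cells and 1.70 ± 0.14 in Arg1-high cells. Within Arg1-high cells alone, Il1rn, Il1rap (0.73 ± 0.22) and Il1b (0.41 ± 0.13) passed edgeR's test (adjusted p = 4.22e-31, 0.0129 and 0.0275). That fit gave every gene the same trended spread and called 10.8% of 10287 genes, so those p-values rest on that assumption.

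Il1rn stayed above both controls when the share of UMIs from each group was made equal between libraries. Knockout levels of each group were weighted by the groups' UMI shares in control 1 and in control 3. Il1rn was then 264 and 230 CPM, compared with 272 CPM as measured in knockout 4. With the levels of control 1 and control 3 weighted by the UMI shares of knockout 4, it was 78.5 and 138 CPM, compared with 81.0 and 133 CPM as measured. Without Arg1-high cells, the log2 fold change was 0.93 ± 0.29 (edgeR adjusted p = 0.851, where 0.0412% of genes passed) and the difference in log2 balance was 0.88.

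The size of the knockout difference in Il1rn was also set side by side among groups, by an interaction term with each group against the other cells of the same libraries. The terms use the contrast by which the members were chosen and 1 knockout library, so they are given as a description. The fits drew each gene's spread toward the trend over genes, strongly so in C1q positive and in Gpnmb and Lpl positive cells (prior degrees of freedom 107 and 27.6). The p-values there rest on that trend. In Arg1-high cells the log2 difference exceeded that in the other cells by 0.73 ± 0.11, which did not pass (edgeR adjusted p = 0.0532, where 0.0488% of genes passed). In C1q positive cells it was smaller by an interaction of -0.78 ± 0.16 (edgeR adjusted p = 0.00117, where 0.892% of genes passed), and in Gpnmb and Lpl positive cells by one of -0.42 ± 0.10 (edgeR adjusted p = 0.0249, where 0.904% passed). The other 5 groups did not pass for Il1rn, and no other member passed in any group; there 0.422% of genes passed in Ace, Spn and Treml4 positive cells, 0.244% in S100a8 positive, 0.375% in MHC class II high, C1q low, 0.285% in Vcan positive and 0.160% in remaining cells.

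Il1rap behaved alike in its order, above both controls in 8 of 8 groups. The share of all genes with such orders, or with such overlaps of intervals, by group was not counted. It was highest in Arg1-high cells, at 31.8 CPM in knockout 4, against 21.1 and 18.1 CPM in the controls. It was at 28.8 CPM in S100a8 positive cells of knockout 4, against 16.8 and 16.3 CPM, and at 22.8 CPM in Vcan positive cells, against 11.6 and 11.8 CPM. In MHC class II high, C1q low cells it was at 11.01 CPM in knockout 4, against 9.11 and 8.42 CPM, on counts of 19, 23 and 78 UMIs. Counting intervals of knockout 4 overlapped those of a control in 5 of the 8 groups, all but Arg1-high, S100a8 positive and Vcan positive cells. Il1b had no such order: knockout 4 was above both controls in 5 groups, below both in 1 and between them in 2. Il1b was lowest in S100a8 positive cells of knockout 4, at 304 CPM, against 324 and 459 CPM in the controls, the group in which knockout 4 lay below both.

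**Figure D2:**
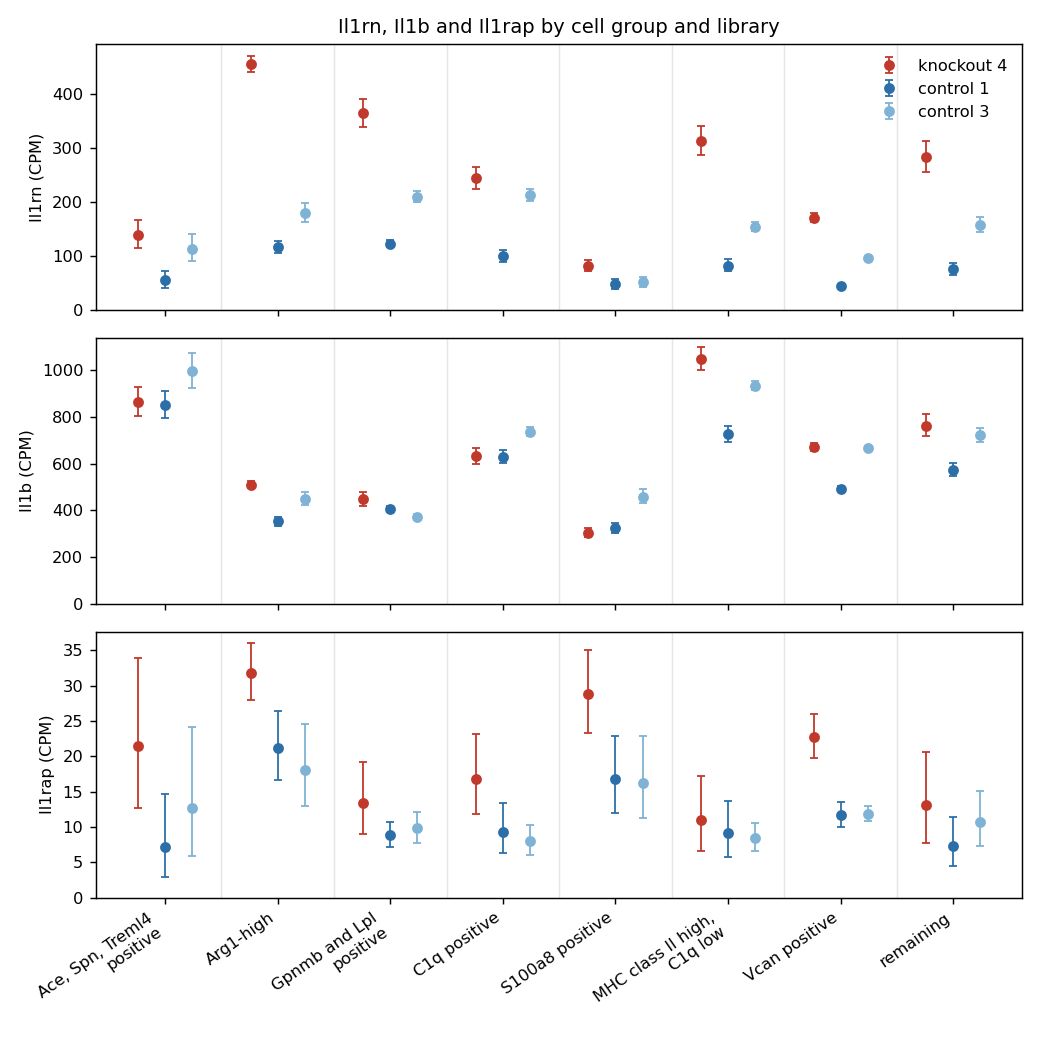
Il1rn, Il1b and Il1rap in CPM by cell group and library, with exact 95% Poisson intervals that cover counting error only. Knockout 4 lies above both controls in all 8 groups for Il1rn and Il1rap, and in 5 of 8 for Il1b. The groups share libraries and are not independent repeats.

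The balance of Il1rn to Il1b was above both controls in all 8 groups as well, which again are not independent repeats. In Arg1-high cells there were 1.12 Il1b UMIs for each Il1rn UMI in knockout 4, against 3.04 and 2.50 in the controls. In Vcan positive cells there were 3.94 in knockout 4, against 10.98 and 6.92. In Gpnmb and Lpl positive cells there were 1.23 in knockout 4, against 3.31 and 1.76. The differences in log2 ratio from the controls' mean were between 0.85 in C1q positive cells and 1.30 in Arg1-high cells. Within a library, the ratio was highest in Arg1-high and in Gpnmb and Lpl positive cells in all 3 libraries, and lowest in Ace, Spn and Treml4 positive cells in knockout 4 and control 1, and in S100a8 positive cells in control 3.

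**Figure D3:**
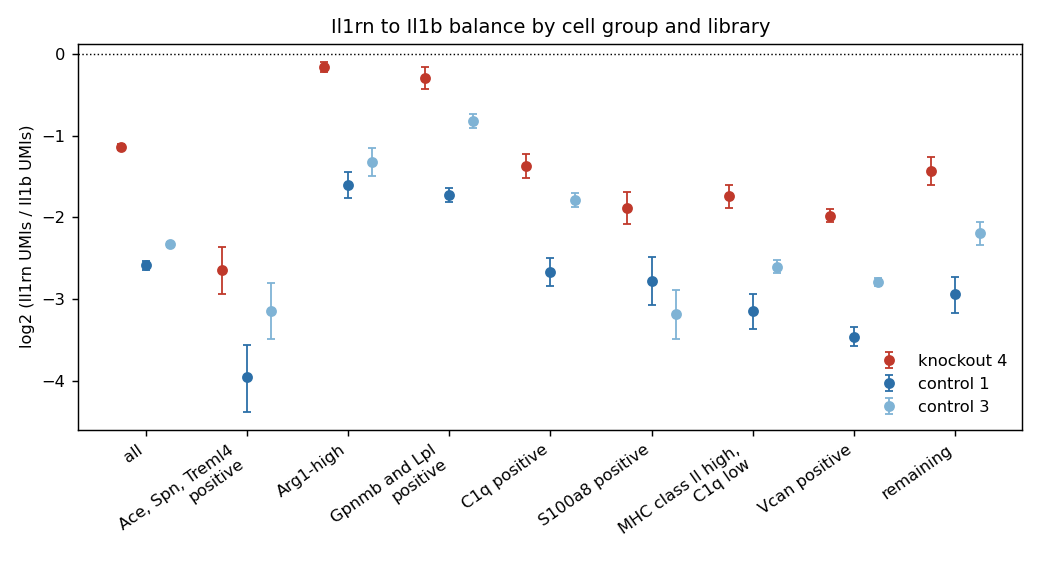
The log2 ratio of Il1rn to Il1b UMIs in all monocyte-macrophage cells and in each cell group, by library; bars are exact 95% binomial intervals, which cover counting error only, and the dotted line marks equal counts. Knockout 4 is above both controls throughout and comes nearest to equal counts in Arg1-high cells, at -0.16.

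Which cells express the members was tested without regard to genotype, by setting each group against the other cells of the same library over 3 libraries, with library as a block. The fit has no term for genotype and gives a shared difference over the 3 libraries, so knockout 4 enters each value beside the controls. For Il1rn in Arg1-high cells, below, the difference was larger in knockout 4 than in either control. Each group was defined by genes that are not members. Il1rn was higher in Arg1-high cells than in the others, at 456, 116 and 179 CPM, against 202, 77.6 and 131 CPM (knockout 4, control 1 and control 3). The difference was 0.79 ± 0.13 on the log2 scale and held in 3 of 3 libraries (edgeR adjusted p = 0.00160, where 19.5% of 12303 genes passed). It was higher in Gpnmb and Lpl positive cells too, by 0.69 ± 0.08 (adjusted p = 4.33e-05, where 27.6% passed). Il1rn was lower in S100a8 positive cells, at 82.1, 47.3 and 50.8 CPM, against 297, 83.2 and 135 CPM in the others (-1.42 ± 0.13, edgeR adjusted p = 4.89e-07, where 22.2% passed). It was also lower in Vcan positive cells, at -0.96 ± 0.05 (25.4% passed), and in Ace, Spn and Treml4 positive cells, at -0.70 ± 0.12 (18.1% passed).

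Il1b had a different distribution. It was higher in MHC class II high, C1q low cells, at 1050, 726 and 935 CPM in knockout 4, control 1 and control 3, against 569, 470 and 627 CPM in the other cells (0.70 ± 0.06, edgeR adjusted p = 2.12e-05, where 4.57% of genes passed). Ace, Spn and Treml4 positive cells, at 865, 854 and 998 CPM, were higher as well (0.61 ± 0.08, adjusted p = 1.68e-07), and the remaining cells by 0.26 ± 0.05 (adjusted p = 0.0104, where 1.33% passed). Il1b was lower in S100a8 positive cells (-0.72 ± 0.08), in Gpnmb and Lpl positive cells (-0.60 ± 0.09) and in Arg1-high cells (-0.44 ± 0.07, edgeR adjusted p = 0.00198). Il1rn and Il1b thus passed in opposite directions in 3 groups: Arg1-high, Gpnmb and Lpl positive, and Ace, Spn and Treml4 positive cells. In S100a8 positive cells both were lower.

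The decoy receptor Il1r2 was highest in S100a8 positive cells of every library. It stood there at 30.5, 9.63 and 14.8 CPM in knockout 4, control 1 and control 3, against 6.83, 2.32 and 8.43 CPM in the other cells (1.71 ± 0.23, edgeR adjusted p = 3.39e-05). It was also higher in Vcan positive cells (0.38 ± 0.12, adjusted p = 0.0424), and lower in Gpnmb and Lpl positive cells (-1.21 ± 0.19, adjusted p = 0.000474) and C1q positive cells (-0.92 ± 0.24, adjusted p = 0.0372, where 6.31% of genes passed). Neutrophils also express Il1r2. The 7 neutrophil markers summed to 316 CPM in S100a8 positive cells of knockout 4, against 216 and 290.44 CPM in those of the controls; Camp and Ngp had 0 UMIs there in all 3 libraries and Ly6g had 0 in knockout 4 and control 1.

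Il1rap was higher in Arg1-high cells (0.81 ± 0.12, edgeR adjusted p = 0.000947) and in S100a8 positive cells (0.50 ± 0.14, adjusted p = 0.0161), and lower in Gpnmb and Lpl positive cells (-0.47 ± 0.13, adjusted p = 0.0158). Il1a was higher in Arg1-high cells, at 5.28, 2.54 and 3.97 CPM in knockout 4, control 1 and control 3, against 2.42, 2.10 and 1.13 CPM in the others (1.07 ± 0.30, edgeR adjusted p = 0.0316), on counts of 42, 9 and 9 UMIs. Il18 was lower in Arg1-high cells (-0.52 ± 0.13, adjusted p = 0.0171) and in Gpnmb and Lpl positive cells (-0.33 ± 0.08, adjusted p = 0.00992), and higher in Vcan positive cells (0.37 ± 0.08, adjusted p = 0.00580). Il18bp was lower in Vcan positive cells (-0.40 ± 0.13, adjusted p = 0.0483).

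In Arg1-high cells, 5 of 7 members passed, 3 of them higher and 2 lower. Of all genes 19.5% passed there, 9.37% higher and 10.1% lower. Without library as a block none of the 5 passed (edgeR adjusted p = 0.355 for Il1rn and 0.167 for Il1rap), where 4.45% of genes passed. With cells thinned to 3000 UMIs 3 members passed, Il1rn, Il1rap and Il1b, where 16.3% of genes passed. The same 3 members passed without control 3, where 14.5% of genes passed; Il1a and Il18 did not pass in either. Without control 1, 6 members passed, where 14.9% of genes did.

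**Figure D4:**
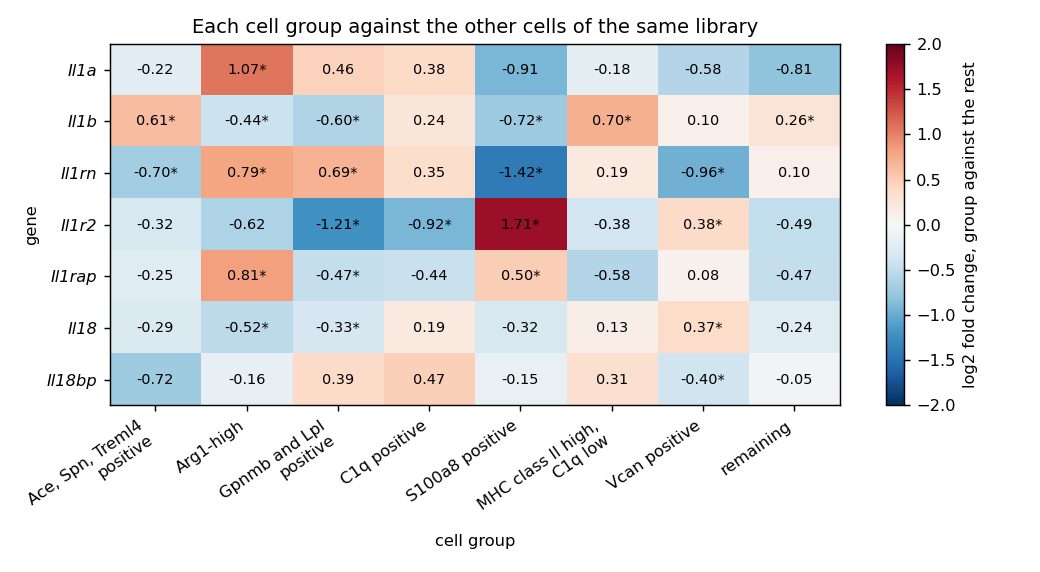
Log2 fold change of each member in each cell group against the other cells of the same library, from 3 libraries with library as a block; an asterisk marks an edgeR adjusted p under 0.05. Il1rn is lowest and Il1r2 highest in S100a8 positive cells (-1.42 and 1.71).

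Of 29 other genes of the pathway, receptors, ligands, adaptors and inflammasome components, 21 could be tested for knockout against control. Of the 21, 10 were above both controls and 7 below both, orders that 36.1% and 36.9% of all genes showed. Their median log2 fold change was -0.05. None of the 21 passed edgeR's test (lowest adjusted p = 0.378), and 2 had an unadjusted p under 0.05. These were Nlrp1b, an inflammasome sensor, at 5.45 CPM in knockout 4, against 9.54 and 9.62 CPM in the controls, and Tollip, an inhibitory adaptor of the receptor, at 28.5 CPM, against 20.97 and 21.71 CPM; both are named here after their values were seen. Caspase-1 (Casp1), which cuts the IL-1β precursor, stood at 54.1 CPM in knockout 4, against 65.7 and 74.9 CPM, and its inflammasome partner Nlrp3 stood at 41.0 CPM, against 35.9 and 50.4 CPM. The IL-18 receptor gene Il18r1 had 0 UMIs in every library, and Il33 had 0 UMIs in knockout 4, against 1 and 2 UMIs in the controls.

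Between cell groups, pathway genes passed in several comparisons with library as a block. In Arg1-high cells, 20 were tested, 5 were lower and 1 was higher: Casp1 (-0.57, adjusted p = 0.00184), Casp4 (-0.54), Nlrp3 (-0.51), Gsdmd, the pore-forming protein through which IL-1β leaves cells (-0.37), and Myd88, the adaptor of the receptor (-0.30), were lower, while Il1rl2 was higher (1.42, adjusted p = 0.0166). In Gpnmb and Lpl positive cells 11 were lower and 0 higher. In S100a8 positive cells 7 were higher and 0 lower, among them Pycard, the inflammasome adaptor (0.72, adjusted p = 4.01e-07), and Il18rap, a chain of the IL-18 receptor (2.32, adjusted p = 2.44e-05). In Vcan positive cells 11 were higher and 0 lower. Against these counts, 10.1% of all genes were lower in Arg1-high cells, 14.8% lower in Gpnmb and Lpl positive cells, 11.2% higher in S100a8 positive cells and 13.0% higher in Vcan positive cells.

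Genes whose levels followed the members most closely were sought over 24 points, the 8 groups in each of 3 libraries, among 5603 genes over 20 CPM. For Il1rn these were Clec4n (Pearson r of log2 CPM 0.97), Cd86 (0.95), Fth1 (0.92), Agpat5 (0.92) and Fubp1 (0.91). Clec4n encodes the fungal receptor dectin-2, Cd86 a costimulatory protein and Fth1 the ferritin heavy chain. For Il1b they were Gm44860 (0.88), Tmem176a (0.88), Atox1 (0.88), Nfkbie (0.88) and Traf1 (0.87); Nfkbie encodes an NF-kB inhibitor and Atox1 a copper chaperone. Il1rn and Il1b correlated with each other at only 0.21. The points share libraries and depths, so these values describe likeness only.

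Free RNA in the droplets bears on shares of cells. In 70 lymphocytes, with a median of 2566.5 UMIs, Il1b was found in 12.9%, and Il1rn in 1.43%, compared with 57.0% and 32.7% of monocyte-macrophage cells with a median of 7909 UMIs. The Il1b UMIs numbered 12 in 4 lymphocytes of knockout 4, 3 in 3 of control 1 and 17 in 2 of control 3. No doublet caller was run, so free RNA, doublets and cells placed in the wrong group cannot be told apart here. Il1r2 and Il1a were found in 0 of 70 lymphocytes, which allows a share of up to 4.29%; these limits cover counting error only, and Il1a, in 1.29% of monocyte-macrophage cells, lay below it. Il18bp was in 1.43% of lymphocytes and 2.57% of monocyte-macrophage cells, a difference that these counts cannot show.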

How the data were processed

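For each gene and barcode the deposited files give a UMI count with no normalization; the submitters' processing notes name bcl2fastq and Cell Ranger 3.0.2, and GRCm38 as the authors' genome build. They hold 5152 barcodes for knockout 4 and 4814 and 8109 for control 1 and control 3. The genes and lists were chosen with earlier results of these data known, and the marker cuts that define cell groups were set on all cells of the 3 libraries together, without reference to the members.

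Barcodes under 500 genes or over 10% mitochondrial UMIs were dropped. Cells whose summed marker UMIs per 10000 reached a cut (10 for Arg1, 15 for the lymphocyte genes and so on) were placed in the first group they met. Lymphocytes and neutrophil-marked cells (70 and 12 cells) were left out of the sums. No doublet caller was run; an alternative left out cells with UMI counts over 2 times the median of their library. Counts were summed per library and tested with edgeR 4.0.16 (R 4.3.3; TMM, filterByExpr, glmQLFit, glmQLFTest, two-sided, Benjamini-Hochberg, threshold 0.05) and, as an alternative, DESeq2 1.42.0. Knockout against control had 1 residual degree of freedom (5.78 prior; common biological coefficient of variation 15.6%). Group against rest used library as a block. Levels (CPM) are counts per 1000000 of the TMM-scaled total. Thinning drew 3000 UMIs per cell and left out 742 shallower cells of knockout 4, and 509 and 691 of the controls. Intervals are exact 95% and cover counting error only. The genes named as most alike in pattern were the 5 with the highest Pearson correlation. Simulated counts gave every gene the trended spread, without a spread of its own, and changed only genes above a low cut in CPM. On them the knockout comparison recovered 70.3% of genes given a log2 change of 1 and 99.7% of those given 2 (14483 genes, 4.60% of calls false). Arg1-high against the rest recovered 98.7% and 100% (12123 genes, 5.69% false). Real genes can vary around the trend, so these shares may overstate recovery in the data. Of 53802 identifiers, 99.7% were found in GENCODE M21. Older gene names in the files were matched through RefSeq synonyms.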

Additional observations from a re-analysis of the deposited data

Results flagged for a closer look

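The interaction terms for Il1rn, which set the knockout difference in a cell group against that in the other cells, passed the threshold in 2 groups. They are given as a description, since the members were chosen on this contrast and the knockout arm is 1 library. Their p-values rest mostly on a spread shared over genes. In Gpnmb and Lpl positive cells the knockout difference was smaller than in the other cells, with an interaction of -0.417 on the log2 scale (edgeR adjusted p = 0.0249): Il1rn stood at 364 CPM in knockout 4, against 122 CPM in control 1 and 210 CPM in control 3 in this group, and at 264 CPM, against 65.7 and 122 CPM, in the other cells. In C1q positive cells the interaction was -0.783 (edgeR adjusted p = 0.00117): Il1rn stood at 244 CPM in knockout 4, against 99.2 and 213 CPM in the group, and at 274 CPM, against 79.5 and 124 CPM, in the other cells. In both groups the knockout library remained above both controls. Il1rn was highest of the groups in Gpnmb and Lpl positive cells in control 1 and in C1q positive cells in control 3. What sets these values was not tested.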

How the results depend on the processing

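Il1rn kept a positive log2 fold change of knockout over control under all 20 alternatives, between 0.58 and 1.74. It passed the threshold with DESeq2's Wald test (1.33, adjusted p = 0.000743), with no filter on low counts (1.32, adjusted p = 3.04e-11) and within Arg1-high cells (1.70, adjusted p = 4.22e-31); over the alternatives with a test the adjusted p was between 4.22e-31 and 0.971. Without control replicate 1 or 3 it was 1.03 or 1.74. The fits without a filter and within Arg1-high cells gave all genes the trended spread. The number of members called was 0 in the main comparison, where 0.196% of genes passed. It was 2 with DESeq2 (0.922% of genes) and 2 with no filter (1.84% of genes). Without Ace, Spn and Treml4 positive cells it was 1 (Il1rap, edgeR adjusted p = 0.0411), where 0.582% of genes passed. Within Arg1-high cells it was 3, where 10.8% of genes passed. Leaving out a control leaves 1 library against 1 and no test. The balance difference of 1.32 was 0.88 without Arg1-high cells, 1.03 as a mean over cells (1.16 over thinned cells), and 0.90, 0.97, 0.85, 1.09, 1.13 and 1.14 within Ace, Spn and Treml4 positive, Gpnmb and Lpl positive, C1q positive, S100a8 positive, MHC class II high C1q low and remaining cells; without 1 control it was between 1.19 and 1.45. The Arg1-high interaction of Il1rn, 0.73 and not past the threshold, passed edgeR's test under several alternatives. These were library totals (0.66, adjusted p = 0.0413), the lower Arg1 cut (0.74, adjusted p = 2.86e-06), no filter (0.76, adjusted p = 2.04e-07) and leaving out high-UMI cells (0.55, adjusted p = 0.0328). In that order 0.577%, 3.72%, 0.926% and 0.749% of all genes passed, against 0.0488% in the main fit. In Arg1-high cells against the rest 5 members were called, where 19.5% of genes passed. With thinned cells 3 were called (16.3% of genes), and with no library block 0 (4.45% of genes). When 1 library was left out, between 3 (without control 3, 14.5% of genes) and 6 (without control 1, 14.9% of genes) were called. The cause of these changes was not tested.

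Signs turned for 5 members, none of them called at the turned sign; Il1b, called within Arg1-high cells (0.41, adjusted p = 0.0275), was -0.16 and 0.29 without control replicate 1 and 3, -0.16 in Ace, Spn and Treml4 positive cells, -0.16 in C1q positive cells and -0.38 in S100a8 positive cells. Il1a was -0.97 in C1q positive cells. Il1r2 was -0.36 in C1q positive and -1.42 in MHC class II high C1q low cells. Il18 was -0.53 and 0.015 without control replicate 1 and 3, and 0.15 in MHC class II high C1q low cells. Il18bp was 0.077 with all barcodes, 0.0083 without Ace, Spn and Treml4 positive cells, and -0.12 and 0.11 without control replicate 1 and 3. Within groups it was 0.45 in Arg1-high, 0.22 in Gpnmb and Lpl positive and 0.35 in MHC class II high C1q low cells. In Arg1-high cells against the rest, Il18bp was between -0.48 and 0.037 over all settings, with -0.41 without knockout 4 and 0.037 without control 3. Leaving out Ace, Spn and Treml4 positive cells and taking each cell group on its own, and averaging over thinned cells, were chosen after seeing the data. No paired analysis was possible because the knockout and control libraries share no replicate number. Il1a, Il1r2 and Il18bp, with at most 621 UMIs in any library, are limited by depth, and 1 knockout library limits every difference.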

Other observations

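The 12 neutrophil-marked cells that were left out of the sums were rich in Il1b. They were taken by a cut on the summed UMIs of Ly6g, Cxcr2, Retnlg and Mmp8, so a cell need not hold all of them. In 5 such cells of knockout 4 Il1b had 71 UMIs, or 11476 CPM (exact 95% Poisson interval 8963 to 14475), against 30 UMIs in 2 cells of control 1, or 6492 CPM (4380 to 9267), and 141 UMIs in 5 cells of control 3, or 9016 CPM (7589 to 10633). Il1b was thus many times above its level in any monocyte-macrophage group of the same library, in cells too few to compare between libraries. Il1rn had 3 UMIs in these cells of knockout 4, against 0 and 1 UMI in those of the controls. Together they held a small part of all Il1b UMIs, with 17327 UMIs in the monocyte-macrophage cells of knockout 4, against 19559 and 48098 in those of the controls.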
